A study of Mus musculus with 8 samples.

Results

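Genes of the interferon response and of MHC class I antigen presentation were followed in cultured mouse peritoneal mesothelial cells (MCs), the flat cells that line the abdominal cavity. The 42 genes were chosen by name, and 35 of them had values among the 13687 genes measured. The other members, Ifit1, Oas2, Zbp1, Mx1, Mx2, Ifi44 and Usp18, were not analysed here. All 35 passed the filter on low values, which kept the 13665 genes that reached a value of 1 in 2 or more of the 8 libraries. Rsad2 passed it only through the cultures of CAV1-/- mouse 1 and Rtp4 only through those of WT mouse 4, so that each had to be high in its mouse.

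Primary MCs came from 2 CAV1-/- mice and 2 WT littermates of the strain B6.Cg-CAV1tm1mls/J, in which caveolin-1, the main coat protein of caveolae, is missing from every cell of the null animals. The labels number the CAV1-/- animals mouse 1 and mouse 2 and the WT animals mouse 3 and mouse 4. Cells of each mouse were grown to confluence and then either kept static or stretched mechanically for 24 h, so that each of the 4 groups (WT static, WT stretched, CAV1-/- static, CAV1-/- stretched) held 2 cultures and each mouse gave 1 static and 1 stretched culture. The cells were released from parietal peritoneum with trypsin, no sorting step is described, mice of both sexes are stated to have been used, and neither age nor the sex of each mouse is given in the sources used here. Poly-A RNA was sequenced, no interferon or other immune stimulus is described, and the comparisons ask how stretch and the loss of CAV1 change the transcriptome of MCs.

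Type I interferons act through the receptor chains Ifnar1 and Ifnar2 on a complex that contains Stat2 and Irf9 and binds interferon-stimulated response elements (ISREs), and interferon-gamma acts through gamma-activated sites (GASs). The induced genes encode sensors of viral nucleic acid, effectors that block viral replication and GTPases that act on intracellular pathogens. The same signals raise the immunoproteasome, the TAP peptide transporter and the MHC class I molecules, which together cut, transport and display peptides at the cell surface, and macrophages, which are abundant in the peritoneal cavity, express many of these genes at rest.

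A gene is called changed at an adjusted p under 0.05, and rose, fell or changed are used for called genes alone. Values are read counts scaled to the library total and by TMM (TMM-normalized CPM), and pairs of values are given for WT mouse 3 and mouse 4 and for CAV1-/- mouse 1 and mouse 2, in this order. The libraries held 9777738 to 21203938 reads, and 3 reads, taken as the smallest detectable amount, corresponded to 0.146 to 0.308 TMM-normalized CPM. The targeted gene Cav1 had 764 and 275 in the static and 569.9 and 247 in the stretched WT cultures, against 34.5 and 18.9 in the static and 20.04 and 12.8 in the stretched CAV1-/- cultures. The cultures differed in cell type markers. The sum of 12 leukocyte markers was 1667 and 1151 in the static and stretched cultures of CAV1-/- mouse 1, and between 37.4 and 141 in the other 6, and each of the 12 was higher in both cultures of mouse 1 than in the other 6. The sum of 11 macrophage markers was 4710 and 4790 in mouse 1 and 69.5 to 453 elsewhere. The 3 lymphocyte markers with values, the B cell genes Cd79a, Cd79b and Ms4a1, summed to between 2.46 and 5.82 in every culture. No T or NK cell marker on the list had values to analyse here. The sum of 11 mesothelial markers was 2049 to 3012 in WT and 439 to 662 in CAV1-/- cultures. Of the 11, 9 were lower in all 4 CAV1-/- than in all 4 WT cultures, a pattern of 5.88% of all genes. Muc16, among the 9, passed the filter only through WT cultures and does not support this count. Wt1 and Krt19 overlapped, with Wt1 at 74.9 to 138 in CAV1-/- and 94.9 to 133 in WT cultures. Fibroblast markers summed to between 11952 and 29214, mostly from Col1a1, Col1a2 and Col3a1. Pdgfra was 55.4 and 19.3 in static and stretched CAV1-/- mouse 1 and 154 to 706 elsewhere. Dcn was 142 and 42.6 against 203 to 861. Lum and Dpt were also lowest in mouse 1, and Col1a1, Col1a2, Col3a1 and Pi16 overlapped. Of 5 endothelial markers, Cdh5, Emcn and Vwf were above the other 6 in both cultures of mouse 1. Kdr was below the other 6 and Tek overlapped. Cdh5 and Emcn passed the filter only through mouse 1, so both had to be above the other 6 and their place there is no support. RNA of a mixed culture was measured, so that fewer cells of a type and less RNA per cell cannot be told apart, and the part of these markers in the results on the members was not tested.

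The promoter windows of the members show which of them carry the known interferon motifs. RefSeq windows on GRCm38.p6, from 250 bases before to 50 bases after the transcription start, matched 32 of the 42 members and 30 of the 35 with values. The ISRE core GAAANNGAAA, or TTTCNNTTTC on the other strand, was present in 15 of these 30 (50%) and in 3.99% of all 27025 genes with a window. The GAS core TTCNNNGAA, which reads the same on both strands and shares letters with an ISRE core in Bst2 and Ifitm3, was present in 9 of the 30 (30%) and in 9.55% of all genes. A match describes letters only, and a window without one says nothing about the factor. The windows of 7 members on which the results turn are given 5′ to 3′ on the strand of the gene, with motif matches in capitals. Oasl2 and Xaf1 had the largest log2 differences between genotypes, Ddx58, Ifih1 and Irf1 were lower in every CAV1-/- than in every WT culture, and B2m and Psmb8 were higher in CAV1-/- mouse 1 than in every other culture. The windows lie at chr5:114896684-114896983 (+ strand), chr11:72301379-72301678 (+ strand), chr4:40239776-40240075 (- strand), chr2:62646206-62646505 (- strand), chr11:53769764-53770063 (+ strand) at the first of its 2 listed starts, chr2:122147437-122147736 (+ strand) and chr17:34197945-34198244 (+ strand).
Oasl2: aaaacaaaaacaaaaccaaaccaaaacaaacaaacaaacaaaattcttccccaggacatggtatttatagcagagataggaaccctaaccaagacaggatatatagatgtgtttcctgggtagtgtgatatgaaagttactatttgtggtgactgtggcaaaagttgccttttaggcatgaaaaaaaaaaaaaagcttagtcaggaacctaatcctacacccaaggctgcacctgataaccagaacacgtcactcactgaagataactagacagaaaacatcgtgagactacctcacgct
Xaf1: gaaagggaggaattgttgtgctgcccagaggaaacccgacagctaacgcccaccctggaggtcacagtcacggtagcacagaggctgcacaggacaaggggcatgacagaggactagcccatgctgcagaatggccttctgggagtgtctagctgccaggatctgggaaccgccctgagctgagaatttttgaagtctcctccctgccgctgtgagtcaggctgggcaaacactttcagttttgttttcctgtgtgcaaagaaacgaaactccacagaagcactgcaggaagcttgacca
Ddx58: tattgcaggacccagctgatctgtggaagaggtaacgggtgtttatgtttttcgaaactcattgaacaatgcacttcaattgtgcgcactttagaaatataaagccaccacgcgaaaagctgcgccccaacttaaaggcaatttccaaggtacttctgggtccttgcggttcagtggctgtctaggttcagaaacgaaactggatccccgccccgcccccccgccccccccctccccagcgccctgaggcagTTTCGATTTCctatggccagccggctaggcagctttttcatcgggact
Ifih1: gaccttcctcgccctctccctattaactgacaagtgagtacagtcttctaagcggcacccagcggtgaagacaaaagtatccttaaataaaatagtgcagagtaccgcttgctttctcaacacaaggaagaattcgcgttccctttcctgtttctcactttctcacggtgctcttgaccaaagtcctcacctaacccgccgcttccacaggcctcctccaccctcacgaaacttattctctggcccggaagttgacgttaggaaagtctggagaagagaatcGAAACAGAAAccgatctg
Irf1: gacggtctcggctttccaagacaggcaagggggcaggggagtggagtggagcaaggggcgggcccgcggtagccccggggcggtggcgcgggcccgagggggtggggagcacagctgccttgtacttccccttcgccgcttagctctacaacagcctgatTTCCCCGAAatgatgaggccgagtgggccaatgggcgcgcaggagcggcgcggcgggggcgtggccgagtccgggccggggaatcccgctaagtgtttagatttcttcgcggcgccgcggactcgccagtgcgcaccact
B2m: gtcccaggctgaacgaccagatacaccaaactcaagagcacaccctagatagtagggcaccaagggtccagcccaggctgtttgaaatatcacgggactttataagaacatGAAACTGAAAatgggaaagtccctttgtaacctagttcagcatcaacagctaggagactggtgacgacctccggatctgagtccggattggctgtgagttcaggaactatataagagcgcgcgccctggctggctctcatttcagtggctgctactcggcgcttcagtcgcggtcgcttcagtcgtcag
Psmb8: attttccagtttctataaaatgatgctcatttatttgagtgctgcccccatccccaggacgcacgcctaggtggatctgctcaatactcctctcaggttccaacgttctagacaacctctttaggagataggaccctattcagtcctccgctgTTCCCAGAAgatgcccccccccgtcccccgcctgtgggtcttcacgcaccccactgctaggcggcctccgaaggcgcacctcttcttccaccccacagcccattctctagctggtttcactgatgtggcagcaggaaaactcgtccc

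Neither motif was found in the windows of Oasl2 and Xaf1. The window of H2-D1, which like B2m and Psmb8 was higher in CAV1-/- mouse 1 than in every other culture, held neither motif as well. An ISRE core began at position 3 in Ddx58, at 33 in Ifih1 and at -139 in B2m, counted with the first transcribed base as 1 and the base before it as -1. A GAS core began at -90 in Irf1 and at -97 in Psmb8. Isg15 held 3 overlapping ISRE cores starting at -78, -72 and -66, and Igtp held an ISRE core at -34 and a GAS core at -45. Tap1 and Psmb9, which are read in opposite directions from a shared start region, have windows that share 275 bases, and neither motif was found there. On chromosome 17, 7 of the 35 members (Psmb8, Psmb9, Tap1, Tap2, Tapbp, H2-K1 and H2-D1) lie between positions 33915899 and 35267499 of GRCm38, in the MHC region.

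**Figure D1:**
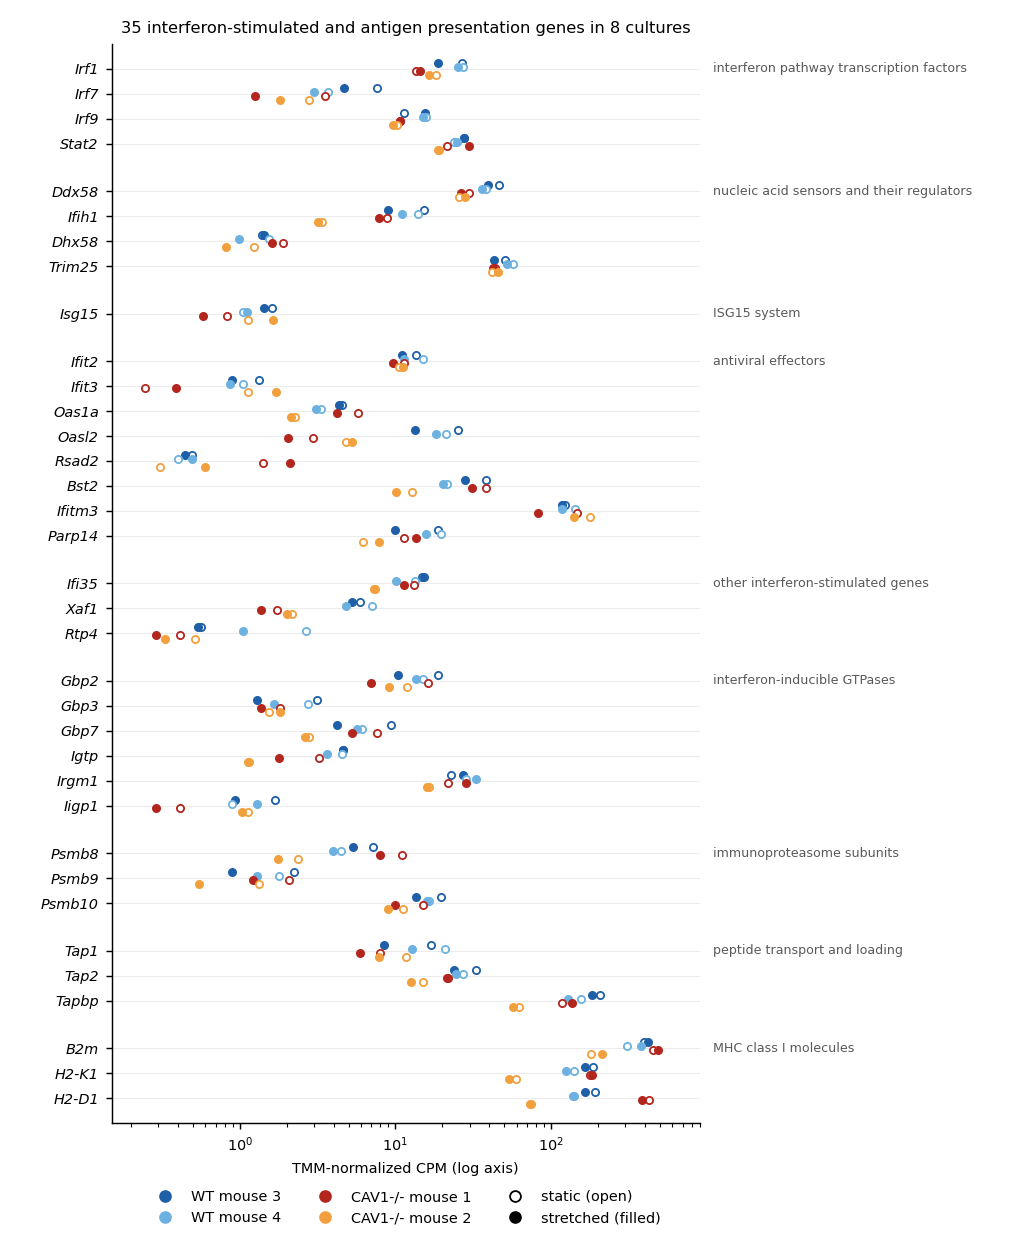
TMM-normalized CPM (log axis) of the 35 members in the 8 cultures, grouped by role, with 1 point per culture, open for static and filled for stretched, coloured by mouse. Oasl2 and Xaf1 separate the WT (blue) from the CAV1-/- (red and orange) cultures, and H2-D1 in CAV1-/- mouse 1 (red) lies above the other cultures at 425 and 385.

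Expression of the list spanned a wide range. Per kilobase of exon, the mean over the 8 cultures was highest for B2m, the invariant light chain of MHC class I, at 410.5 CPM per kb, followed by 193 for Ifitm3, which blocks entry of viruses, 77.1 for H2-D1 and 46.4 for H2-K1, both class I heavy chains. The least abundant were Iigp1 at 0.165 and Rsad2 at 0.180 CPM per kb. In 16 members at least 1 culture had fewer than 50 reads, and Ifit3 in static CAV1-/- mouse 1 and Rsad2 in static CAV1-/- mouse 2 rested on 3 reads each.

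The comparison of CAV1-/- with WT cultures showed lower values for most of the list, with Oasl2, a member of the oligoadenylate synthetase family, and Xaf1, an interferon-induced factor that counteracts an inhibitor of apoptosis, farthest apart. Without stretch, 31 of the 35 members were lower in CAV1-/- cultures and 4 were higher, with a median log2 difference of -0.42 against -0.013 over all genes tested. Under stretch, 31 were again lower and 4 higher, with a median of -0.39 against 0 over all genes. Of the members, 20 (57.1%) had both static CAV1-/- cultures below both static WT cultures, compared with 20.8% of all genes, and 1 (Ifitm3) had both above, compared with 16.1%. In stretched cultures 13 members (37.1%) had both CAV1-/- cultures below both WT cultures, compared with 15.9% of all genes, and 1 (Rsad2, which passed the filter through CAV1-/- mouse 1) had both above, compared with 14.6%. Irf1, Irf9, Ddx58, Ifih1, Oasl2, Xaf1, Rtp4, Igtp and Tap2, which make up 25.7% of the members, were lower in all 4 CAV1-/- than in all 4 WT cultures, a pattern of 5.88% of all genes. No member was higher in all 4, against 3.86% of all genes. Rtp4, which passed the filter through WT mouse 4 alone, is among the 20, the 13 and the members lower in all 4, and supports none of these counts.

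By limma on log2(value + 1), with 2 mice per genotype and Benjamini-Hochberg adjustment over all 13665 genes, no member passed an adjusted p of 0.05 in either state, where 0.0732% of all genes (10) passed without stretch and 0.0585% (8) with it. At an unadjusted p under 0.05 there were 8 members (22.9%) without stretch, compared with 8.17% of all genes, and 7 (20%) with stretch, compared with 6.26%. The quasi-likelihood test of edgeR on the recovered reads called 0 members in both states. It put 6 and 7 members under the unadjusted threshold, compared with 1092 and 882 of all 13665 genes. DESeq2 on the same reads called Oasl2 and Xaf1 in both states, where it called 2.26% of all genes (309) without stretch and 1.74% (238) with it, so that the calls on both genes depend on the tool. The mesothelial marker sum was also lower in every CAV1-/- than in every WT culture. Markers and genotype thus cannot be told apart in these comparisons, and the part of the markers in the differences was not tested.

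All 4 transcription factors were lower on average in CAV1-/- cultures in both states, with a median log2 difference of -0.47 without and -0.51 with stretch, and none was called. Irf1, which activates MHC class I and immunoproteasome genes, stood at 26.8 and 26.97 in the static WT cultures against 13.6 and 18.2 in the static CAV1-/- cultures, and at 18.7 and 25.4 against 14.3 and 16.5 under stretch. The genotypes did not overlap, and both cultures of CAV1-/- mouse 1 were the lowest of the 8. The log2 difference of Irf1 was -0.74 ± 0.21 (SE) without stretch (limma adjusted p = 0.378) and -0.48 ± 0.21 (SE) with stretch (limma adjusted p = 0.858). Irf9, the DNA-binding subunit of the type I interferon complex, measured 11.3 and 15.8 in static and 15.4 and 15.03 in stretched WT cultures and 10.6 and 10.3 in static and 10.7 and 9.58 in stretched CAV1-/- cultures. Its genotypes did not overlap either, but the lowest WT culture lay just above the highest CAV1-/- culture.

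Irf7, which amplifies type I interferon production, was low, with 7.55 and 3.71 in static WT, 4.68 and 3.02 in stretched WT, 3.54 and 2.78 in static CAV1-/- and 1.26 and 1.81 in stretched CAV1-/- cultures. Within each state its WT cultures were above its CAV1-/- cultures, with a log2 difference of -0.92 ± 0.36 (SE) under stretch (limma adjusted p = 0.747). Stat2, the partner of Irf9, had 27.5 and 23.7 in static WT and 21.3 and 19.02 in static CAV1-/- cultures. Under stretch Stat2 overlapped between genotypes, at 27.4 and 24.9 in WT and 29.6 and 18.7 in CAV1-/- cultures, as stretched CAV1-/- mouse 1 held the highest value of the 8.

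Of the 4 sensors and their regulators, 3 were lower without and 4 with stretch, and none was called. Ddx58, which encodes RIG-I, had 46.6 and 38.1 in static WT and 39.2 and 36.2 in stretched WT cultures. Its CAV1-/- cultures gave 29.5 and 25.5 without and 26.2 and 28.1 with stretch, so that all 4 lay below every WT culture and the CAV1-/- mice were close to each other. The log2 difference of Ddx58 was -0.60 ± 0.15 (SE) without stretch (limma adjusted p = 0.289) and -0.46 ± 0.15 (SE) with it (limma adjusted p = 0.626). Ifih1, which encodes MDA5, a sensor of long double-stranded RNA, had 15.2 and 13.97 in static WT against 8.82 and 3.39 in static CAV1-/- cultures, and 8.97 and 11.1 in WT against 7.86 and 3.17 in CAV1-/- cultures under stretch.

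CAV1-/- mouse 2 was the lower of the CAV1-/- mice for Ifih1, with a WT mean 3.75 times its own mean, compared with 1.48 times that of mouse 1. The log2 difference of Ifih1 was -1.25 ± 0.49 (SE) without stretch (limma adjusted p = 0.578). Dhx58, which encodes LGP2, a regulator of both sensors, had 1.90 and 1.60 in the static and stretched cultures of CAV1-/- mouse 1 and 1.23 and 0.821 in those of mouse 2, with 1.40 and 1.53 in static and 1.43 and 0.986 in stretched WT cultures. It was the only gene of this group higher in both cultures of mouse 1 than in the other 6. Trim25, a ubiquitin ligase that activates RIG-I, ranged from 41.7 to 57.1, with a log2 difference of -0.33 ± 0.14 (SE) without and -0.11 ± 0.14 (SE) with stretch.

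Isg15, the ubiquitin-like protein attached to targets in the interferon response, was low, at 1.61 and 1.05 in static WT, 1.43 and 1.11 in stretched WT, 0.824 and 1.13 in static CAV1-/- and 0.582 and 1.64 in stretched CAV1-/- cultures. The genotypes overlapped, and CAV1-/- mouse 1 held the lowest pair of values. Oasl2 had 25.3 and 21.1 in static WT and 2.97 and 4.83 in static CAV1-/- cultures, and 13.4 and 18.2 in WT and 2.04 and 5.25 in CAV1-/- cultures under stretch. The genotypes were separate in both states, and the WT mean was 7.79 times the mean of CAV1-/- mouse 1 and 3.87 times that of mouse 2.

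The log2 difference of Oasl2 was -2.33 ± 0.39 (SE) without stretch (limma adjusted p = 0.122) and -1.93 ± 0.39 (SE) with stretch (limma adjusted p = 0.299), with both CAV1-/- mice lower in both states. DESeq2 gave adjusted p-values of 0.000324 and 0.00713. The other effectors were less uniform, and of the 8 effectors 6 were lower and 2 higher in each state, with a median of -0.36 without and -0.17 with stretch. Parp14, an ADP-ribosyltransferase, measured 18.9 and 19.6 in static WT and 11.4 and 6.17 in static CAV1-/- cultures, and 9.86 and 15.6 in WT and 13.6 and 7.88 in CAV1-/- cultures under stretch, where the genotypes overlapped. Ifit2, which binds viral RNA, ranged from 9.70 to 15.1, and its static cultures were 13.6 and 15.1 in WT and 11.4 and 10.5 in CAV1-/-.

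Ifit3, a partner of Ifit2, had 1.33 and 1.05 in static and 0.888 and 0.862 in stretched WT cultures and 0.247 and 1.13 in static and 0.388 and 1.70 in stretched CAV1-/- cultures. Its CAV1-/- mice lay on opposite sides of WT, with mouse 1 below and stretched mouse 2 above every WT culture. Ifitm3 was 123 and 142 in static WT and 147 and 177 in static CAV1-/- cultures, and 118 and 118 in WT and 82.6 and 139.8 in CAV1-/- cultures under stretch. It was the only member whose static CAV1-/- cultures both exceeded both WT cultures, by a log2 difference of 0.29 ± 0.25 (SE) (limma adjusted p = 0.863), and it gave -0.13 ± 0.25 (SE) under stretch.

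Bst2 (tetherin), which holds budding viruses at the cell surface, and Oas1a, an oligoadenylate synthetase, were split between the CAV1-/- mice rather than between the genotypes. Bst2 measured 38.3 and 30.95 in the static and stretched cultures of CAV1-/- mouse 1 and 12.9 and 10.1 in those of mouse 2, with 20.3 to 38.3 in WT. Oas1a measured 5.77 and 4.22 in mouse 1 and 2.26 and 2.13 in mouse 2, with 3.08 to 4.55 in WT. Rsad2 (viperin), an antiviral enzyme of the endoplasmic reticulum, was 1.40 and 2.09 in mouse 1 and 0.308 and 0.602 in mouse 2, with 0.490 and 0.404 in static and 0.444 and 0.493 in stretched WT cultures. In Rsad2 these rested on 17 and 43 reads in mouse 1 and on 3 to 11 reads in each of the others.

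Xaf1 had 5.95 and 7.11 in static WT and 1.73 and 2.16 in static CAV1-/- cultures, and 5.23 and 4.80 in WT and 1.36 and 2.02 in CAV1-/- cultures under stretch. The genotypes were far apart, with a WT mean 3.74 times that of CAV1-/- mouse 1 and 2.76 times that of mouse 2. The log2 difference of Xaf1 was -1.35 ± 0.23 (SE) without stretch (limma adjusted p = 0.122) and -1.17 ± 0.23 (SE) with it (limma adjusted p = 0.260), and DESeq2 gave adjusted p-values of 0.0125 and 0.0267. Ifi35, an interferon-induced leucine zipper protein, was 14.9 and 13.3 in static WT and 13.1 and 7.30 in static CAV1-/- cultures, and 15.3 and 10.04 in WT and 11.4 and 7.44 in CAV1-/- cultures under stretch, where the genotypes overlapped. Rtp4, a chaperone of membrane receptors, was between 0.542 and 2.66 in WT and 0.291 and 0.514 in CAV1-/- cultures, with single WT cultures close to the CAV1-/- values.

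Of the GTPases, all 6 were lower on average in static CAV1-/- cultures and 5 of 6 in stretched ones, and none was called. Igtp, an immunity-related GTPase that acts on the vacuoles of intracellular parasites, had 4.62 and 4.52 in static WT against 3.21 and 1.13 in static CAV1-/- cultures, and 4.59 and 3.63 in WT against 1.80 and 1.15 in CAV1-/- cultures under stretch. All 4 CAV1-/- cultures were below WT, and mouse 2 was the lowest. Its log2 difference was -0.89 ± 0.36 (SE) without stretch (limma adjusted p = 0.603) and -1.05 ± 0.36 (SE) with it (limma adjusted p = 0.662). Irgm1, a regulator of that family, was 22.7 and 28.4 in static WT and 21.7 and 16.4 in static CAV1-/- cultures, and 27.02 and 32.96 in WT and 28.2 and 15.9 in CAV1-/- cultures under stretch. Both cultures of CAV1-/- mouse 2 and the static culture of mouse 1 were below every WT culture for Irgm1, and stretched mouse 1 was within the WT range.

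Iigp1, an effector of the same family, was at the low end, with 1.68 and 0.888 in static WT, 0.937 and 1.29 in stretched WT, 0.412 and 1.13 in static CAV1-/- and 0.291 and 1.04 in stretched CAV1-/- cultures. CAV1-/- mouse 1 held the 2 lowest values. The guanylate-binding proteins Gbp2, Gbp3 and Gbp7, which coat pathogen vacuoles, overlapped between genotypes when both states were pooled. Gbp7 was 7.58 and 5.24 in the static and stretched cultures of CAV1-/- mouse 1 and 2.78 and 2.63 in those of mouse 2, with 9.30 and 6.14 in static and 4.19 and 5.67 in stretched WT cultures. Mouse 1 lay within the WT range of Gbp7 and mouse 2 below it. Gbp3 had 3.15 and 2.75 in static WT against 1.81 and 1.54 in static CAV1-/- cultures and overlapping values under stretch, at 1.28 and 1.66 in WT and 1.36 and 1.81 in CAV1-/- cultures. Gbp2 is described with the stretch comparison, where it stood out.

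The immunoproteasome subunits Psmb8, Psmb9 and Psmb10 replace Psmb5, Psmb6 and Psmb7 of the constitutive proteasome and change the peptides it cuts. Psmb8 was 11.04 and 8.01 in the static and stretched cultures of CAV1-/- mouse 1 and 2.36 and 1.75 in those of mouse 2, with 7.21 and 4.44 in static and 5.33 and 3.94 in stretched WT cultures. The WT cultures thus lay between both CAV1-/- mice, and the genotype difference of Psmb8 was -0.07 ± 0.76 (SE) on the log2 scale without stretch. Within each library the ratio of Psmb8 to Psmb5 was 0.0712 and 0.0566 in mouse 1, 0.0193 and 0.0143 in mouse 2 and 0.0347 to 0.0551 in WT, while the sum of the 3 constitutive subunits stayed between 327 and 417. Psmb9 ranged from 0.547 to 2.24. Psmb10 had 19.5 and 16.4 in static WT and 15.00 and 11.1 in static CAV1-/- cultures, and 13.6 and 15.95 in WT and 9.90 and 8.92 in CAV1-/- cultures under stretch. Within each state its CAV1-/- cultures were below its WT cultures, and its log2 difference under stretch was -0.60 ± 0.20 (SE) (limma adjusted p = 0.648).

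Peptides are pumped into the endoplasmic reticulum by the Tap1-Tap2 heterodimer and loaded with the help of tapasin (Tapbp). Tap1 had 17.00 and 20.9 in static WT and 7.91 and 11.6 in static CAV1-/- cultures, and 8.43 and 12.7 in WT and 5.92 and 7.83 in CAV1-/- cultures under stretch. Within each state its genotypes did not overlap, and CAV1-/- mouse 1 was the lower of the CAV1-/- mice. Tap2 measured 33.2 and 27.05 in static WT against 21.6 and 15.1 in static CAV1-/- cultures, and 23.9 and 24.3 in WT against 21.8 and 12.6 in CAV1-/- cultures under stretch. Tapbp was 206 and 156 in static WT and 117 and 62.2 in static CAV1-/- cultures, and 182 and 129 in WT and 136 and 57.1 in CAV1-/- cultures under stretch. For Tapbp, unlike Tap1, mouse 2 was the lower one, with a WT mean 2.82 times its own and 1.33 times that of mouse 1. The log2 differences without stretch were -0.91 ± 0.28 (SE) for Tap1 (limma adjusted p = 0.446), -0.70 ± 0.29 (SE) for Tap2 (limma adjusted p = 0.619) and -1.06 ± 0.48 (SE) for Tapbp (limma adjusted p = 0.673).

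The class I molecules themselves did not separate the genotypes. H2-D1 was 425 and 385 in the static and stretched cultures of CAV1-/- mouse 1 and 74.7 and 72.8 in those of mouse 2, with 190.5 and 138 in static and 166 and 139 in stretched WT cultures. Mouse 1 was 2.55 times and mouse 2 0.466 times the WT mean, so that the CAV1-/- mice lay on opposite sides of WT and 5.48-fold apart. H2-K1 was 179 and 182 in mouse 1 and 59.5 and 53.5 in mouse 2, with 186 and 141 in static and 165 and 125 in stretched WT cultures. B2m was 452 and 485 in mouse 1 and 179 and 212 in mouse 2, with 393 and 308 in static and 417 and 378 in stretched WT cultures. Mouse 2 was the lowest for all 3 genes, and mouse 1 was the highest for B2m and H2-D1, whereas static WT mouse 3 was the highest for H2-K1. Within each library the ratio of H2-D1 to H2-K1 was 2.38 and 2.11 in mouse 1, 1.26 and 1.36 in mouse 2 and 0.976 to 1.12 in WT. The heavy chain genes are close copies of each other and of further class I genes, so the split of reads between them is uncertain.

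**Figure D2:**
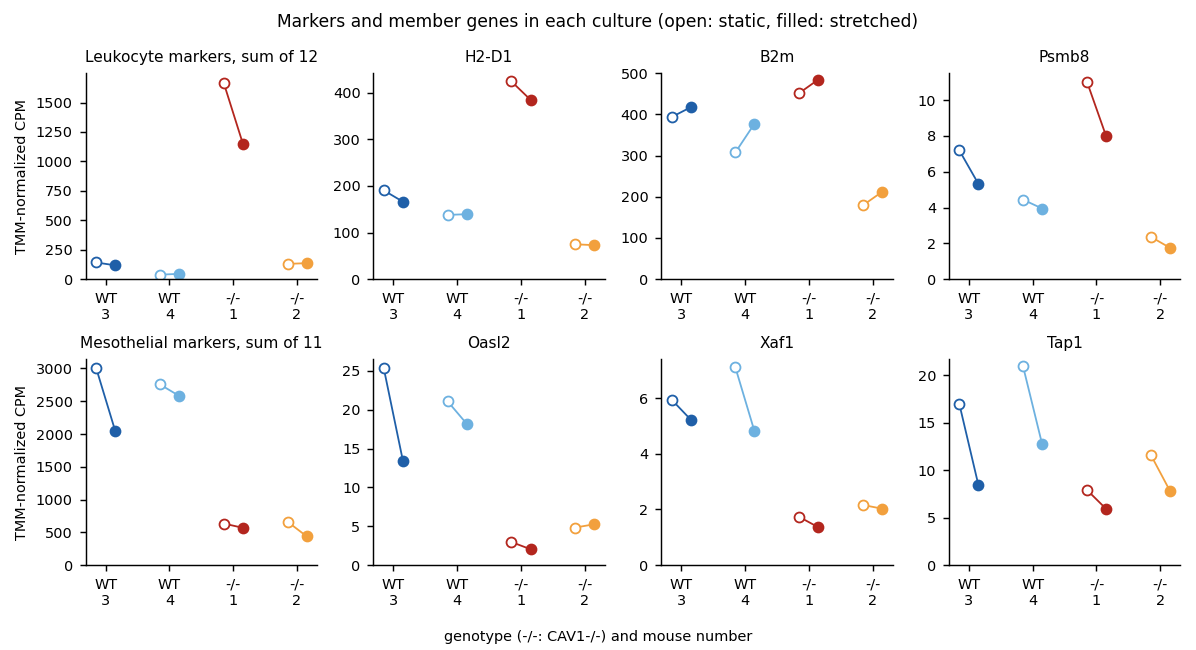
TMM-normalized CPM (linear axes from 0) of the summed leukocyte and mesothelial markers and of 6 members in each culture, with the static (open) and stretched (filled) culture of a mouse joined by a line. The leukocyte sum, H2-D1, B2m and Psmb8 are highest in CAV1-/- mouse 1, whereas Oasl2 and Xaf1 are lower in both CAV1-/- mice, as are the mesothelial markers.

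The leukocyte-rich cultures of CAV1-/- mouse 1 were compared with the other 6 as values only, since they come from 1 animal. Dhx58, Rsad2, Psmb8, B2m and H2-D1 were above all other 6 in both cultures, which makes 5 of 35 members (14.3%) and 12.2% of all genes. Rsad2 passed the filter only through these cultures, so it had to be among the 5, and neither its place there nor its ratio below is support. Irf1, Isg15, Ifit3, Oasl2, Xaf1 and Iigp1 were below all other 6 in both, which makes 6 members (17.1%) and 12.2% of all genes. Without the static culture of mouse 1, where its stretched culture alone has to lie below the other 6, the second count was 12 (34.3%), compared with 22% of all genes. The mean of mouse 1 was 3.82 times the mean of the other 6 for Rsad2, 3.11 times for H2-D1 and 2.28 times for Psmb8, and 0.170, 0.274 and 0.303 times for Oasl2, Ifit3 and Iigp1. Both shares of members were close to those of all genes. The cultures were set apart for their leukocyte markers, whose part in these values was not tested.

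The CAV1-/- mice were not alike in the list. In both states mouse 1 was above mouse 2 in 20 members (57.1%), compared with 36.9% of all genes, and the median log2 difference of mouse 1 from mouse 2 was 0.40. Against WT, both cultures of mouse 2 were below all 4 WT cultures in 23 members (65.7%), compared with 15.6% of all genes, and both cultures of mouse 1 in 13 (37.1%), compared with 18.1%. Rtp4, which passed the filter through WT mouse 4 alone, is among the 23 and the 13 and supports neither count. Both cultures of mouse 1 were above all 4 WT cultures in 5 members (14.3%), compared with 15.9%. Rsad2, which passed the filter only through mouse 1, is among the 20 and these 5 and supports neither count. Relative to the WT mean, the median member differed by -0.30 log2 in mouse 1, with 25 lower and 10 higher, and by -0.58 in mouse 2, with 32 lower and 3 higher. The leukocyte sum of mouse 2 (129 and 135) was near that of WT mouse 3 (141 and 117), but its macrophage sum (290.3 and 322) was lower than that of WT mouse 3 (442 and 453). Set against both cultures of WT mouse 3 alone, a comparison chosen after the values were seen, mouse 2 was lower in 24 members (68.6%) and in 29.1% of all genes, and the part of the macrophage markers in this was not tested.

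**Figure D3:**
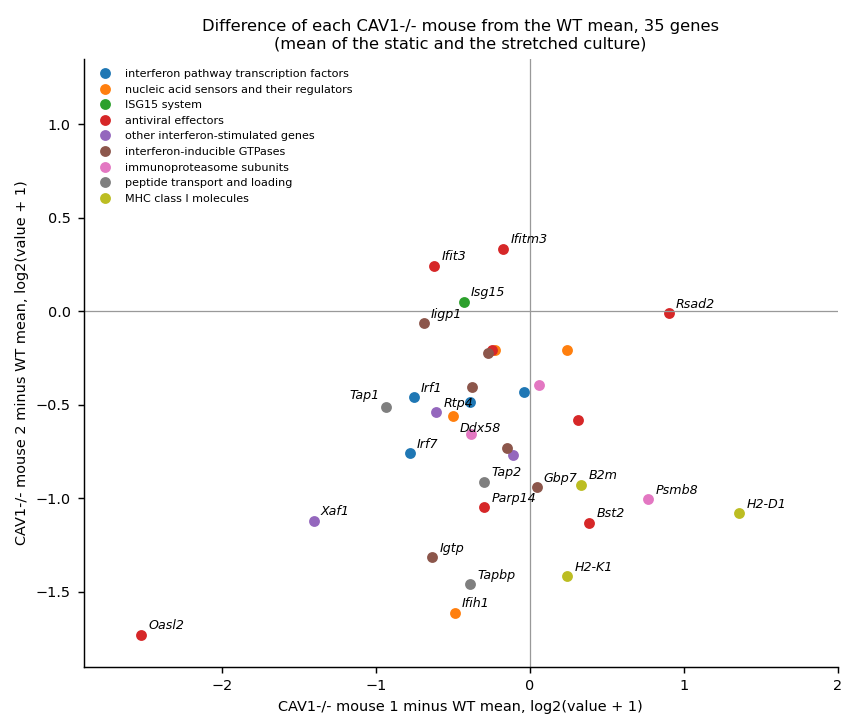
Difference of CAV1-/- mouse 1 (horizontal axis) and mouse 2 (vertical axis) from the WT mean for the 35 members, as log2(value + 1) averaged over the static and the stretched culture, coloured by role. Oasl2 and Xaf1 lie at the lower left, below WT in both mice, and H2-D1, Psmb8, H2-K1, B2m and Bst2 lie at the lower right, above the WT mean in mouse 1 and below it in mouse 2.

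When both cultures of CAV1-/- mouse 1 were left out, 34 members were tested, as Rsad2 no longer passed the filter. The median log2 difference between genotypes was then -0.66 without stretch, with 33 members lower and 1 higher, and -0.61 with stretch, with 29 lower and 5 higher. Leaving out CAV1-/- mouse 2 moved the medians the other way, to -0.31 without stretch when its static culture was left out, with 24 lower and 11 higher, and to -0.17 with stretch when its stretched culture was left out, with 23 lower and 12 higher. The medians were -0.42 and -0.39 with all cultures, so their size depends on which CAV1-/- mouse is kept. Without mouse 1 no member was called by limma, and 15 members without and 12 with stretch had an unadjusted p under 0.05, compared with 8.68% and 7.12% of all genes. The single remaining CAV1-/- culture per state is assumed in these fits to vary like the other groups.

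Most members had lower values in stretched than in static cultures, and none of these differences was called. In WT cultures 30 members were lower and 5 higher under stretch, with a median log2 difference of -0.22 against -0.017 over all genes. Without the static culture of WT mouse 3 that median was -0.13, with 23 lower and 12 higher. In CAV1-/- cultures 26 were lower and 9 higher, with a median of -0.096, where all genes had a median that rounds to 0. Without the static culture of CAV1-/- mouse 1 that median was 0.043, and without the stretched culture of CAV1-/- mouse 2 it was -0.0057. It was -0.36 without the static culture of mouse 2 and -0.31 without the stretched culture of mouse 1, so its size and sign depend on single cultures. Over both genotypes the median was -0.20, against -0.0093 over all genes, and it was -0.071 without static and -0.30 without stretched CAV1-/- mouse 1, and -0.31 without static and -0.11 without stretched CAV1-/- mouse 2. By mouse, the median log2 difference was -0.25 in WT mouse 3, -0.14 in WT mouse 4, -0.16 in CAV1-/- mouse 1 and -0.063 in CAV1-/- mouse 2.

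Irf7, Ifih1, Oas1a, Bst2, Ifitm3, Xaf1, Rtp4, Gbp2, Gbp7, Psmb8, Psmb9, Psmb10 and Tap1 were lower in the stretched culture of all 4 mice. They are 13 of the 35 members (37.1%), where 16.9% of all genes were lower in all 4. B2m alone was higher in all 4, against 14.5% of all genes. All 3 immunoproteasome subunits and Tap1 belong to the first group. By limma no member and no gene (0%) passed an adjusted p of 0.05 for stretch in WT, in CAV1-/- or over both genotypes. At an unadjusted limma p under 0.05 there were 2 members in WT (Tap1 and Gbp3), which make 5.71% of members, against 2.27% of all genes. In CAV1-/- there was 1 (Gbp2), which makes 2.86% of members, against 2.09% of all genes. Over both genotypes there were 3 (Gbp2, Tap1 and Psmb9), which make 8.57% of members, against 4.73% of all genes. The quasi-likelihood test of edgeR and DESeq2 called 0 members for stretch as well.

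Since the static and stretched cultures of a mouse share the animal, stretch was also fitted with the mouse as a block. Over both genotypes this called 1.47% of all genes (201) and 0 members, with 10 members at an unadjusted p under 0.05, compared with 21% of all genes. Leukocyte markers did not move in 1 direction with stretch, with 7 of 12 higher in WT and 11 of 12 lower in CAV1-/- cultures on average, whereas 9 of 11 mesothelial markers were lower in WT and 8 of 11 in CAV1-/- cultures. None of these was called. Their part in the values of the members was not tested.

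Gbp2 measured 18.8 and 14.9 in static and 10.5 and 13.5 in stretched WT cultures, and 16.1 and 11.9 in static and 6.94 and 9.14 in stretched CAV1-/- cultures. All 4 mice were lower, WT mouse 4 least, and the mean log2 difference was -0.60 ± 0.17 (SE) (limma adjusted p = 0.984). Tap1 differed by -0.62 ± 0.20 (SE) (limma adjusted p = 0.984) over both genotypes, by -0.81 ± 0.28 (SE) in WT and by -0.44 ± 0.28 (SE) in CAV1-/- cultures. Psmb9 was 2.24 and 1.78 in static and 0.888 and 1.29 in stretched WT cultures, and 2.06 and 1.34 in static and 1.21 and 0.547 in stretched CAV1-/- cultures, a mean log2 difference of -0.53 ± 0.21 (SE) (limma adjusted p = 0.984). The exons of Tap1 and Psmb9 overlap on opposite strands by 212 bases, and whether the counting used strand is not stated, so reads there cannot be told apart.

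Irf7 differed by -0.56 ± 0.25 (SE) on average (limma adjusted p = 0.984) and was lower under stretch in every mouse. Gbp3 differed by -0.68 ± 0.23 (SE) in WT and by -0.056 ± 0.23 (SE) in CAV1-/- cultures, with mouse 2 higher under stretch. Ifitm3 differed by -0.16 ± 0.25 (SE) in WT and -0.58 ± 0.25 (SE) in CAV1-/- cultures, and the larger drop was in mouse 1, whose value was 147 static and 82.6 stretched. At the other end, B2m differed by 0.18 ± 0.38 (SE) and Irgm1 by 0.19 ± 0.21 (SE) (limma adjusted p = 0.999 and 0.999). Irgm1 was higher under stretch in 3 of 4 mice. The MHC class I heavy chains H2-K1 and H2-D1 gave -0.12 ± 0.49 (SE) and -0.089 ± 0.71 (SE), both within their standard errors. The standard errors and p-values of members for stretch and for the interaction come from the fit without the mouse block. They thus include the spread between mice. In WT mouse 3, WT mouse 4, CAV1-/- mouse 1 and CAV1-/- mouse 2, B2m differed by 0.085, 0.29, 0.10 and 0.24. H2-K1 differed by -0.17, -0.18, 0.031 and -0.15, and H2-D1 by -0.20, 0.016, -0.14 and -0.037.

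**Figure D4:**
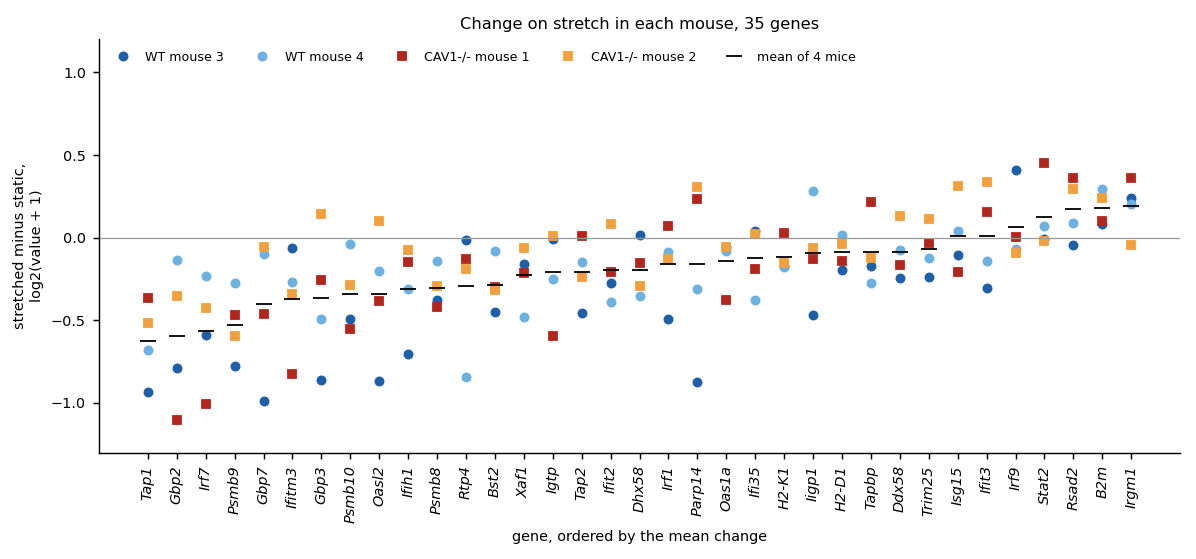
Difference between the stretched and the static culture of each mouse, as log2(value + 1), for the 35 members ordered by their mean (black bars), with circles for WT and squares for CAV1-/- mice. Most points lie below 0, and Tap1, Gbp2, Irf7 and Psmb9 at the left are below 0 in all 4 mice, whereas B2m near the right is above 0 in all 4.

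The difference in the stretch effect between genotypes was tested by the interaction term. No member and no gene (0%) passed an adjusted p of 0.05 by limma, and 0 members had an unadjusted p under 0.05, compared with 0.483% of all genes. By edgeR and DESeq2 the count was also 0. The median member gave 0.11 against 0.014 over all genes, with 21 members positive and 14 negative, and this median turned to -0.18 without static CAV1-/- mouse 2 and to -0.14 without stretched CAV1-/- mouse 1. It was 0.010 without static WT mouse 3, 0.23 without static WT mouse 4, 0.25 without static CAV1-/- mouse 1 and 0.22 without stretched CAV1-/- mouse 2. The values farthest from 0 were 0.86 ± 0.53 (SE) for Parp14, 0.62 ± 0.33 (SE) for Gbp3 and 0.47 ± 0.59 (SE) for Ifit3 on the positive side, and -0.42 ± 0.36 (SE) for Ifitm3, -0.31 ± 0.51 (SE) for Irf7 and -0.26 ± 0.34 (SE) for Gbp2 on the negative side (limma adjusted p = 1 for each).

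Genes around the members in the pathway gave a mixed picture. None of the 9 interferon genes on the list had values to analyse here. Of the receptor and kinase genes none was called in either genotype comparison. Jak2, a kinase of the interferon-gamma receptor, was higher in all 4 CAV1-/- than in all 4 WT cultures, with 81.2 to 118 in CAV1-/- and 62.3 to 79.5 in WT cultures. The receptor chain Ifnar1 stayed between 73.8 and 115 and Ifnar2 between 48.1 and 80.8 over the 8 cultures. Of 8 feedback inhibitors none was called, and Socs3, which blocks JAK kinases, was higher in all 4 CAV1-/- cultures, with 40.3 and 43.5 static and 40.4 and 37.2 stretched against 14.8 and 20.1 static and 16.2 and 11.95 stretched in WT.

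Of 11 genes for upstream sensing and signalling none was called in either comparison, 7 were lower and 4 higher in CAV1-/- cultures without stretch and 9 lower and 2 higher with it. None was lower or higher in all 4 CAV1-/- cultures. In the rest of the class I pathway, 10 genes gave 6 lower and 4 higher without stretch and 8 lower and 2 higher with it, again with none called, and H2-Q4, a nonclassical class I gene, was the one lower in all 4 CAV1-/- cultures. Nlrc5, the transactivator of class I genes, was 4.70 and 3.06 in CAV1-/- mouse 1 and between 0.308 and 0.969 in the other cultures. It passed the filter only through mouse 1, so it had to be highest there and its place is no support. Of 7 MHC class II pathway genes with values none was called. Ctss, a lysosomal protease of macrophages and other presenting cells, was 442 and 429 in mouse 1 and between 7.19 and 46.9 elsewhere, whereas Cd74, the class II invariant chain, stayed between 4.20 and 7.64 in all 8 cultures and H2-Ab1 between 1.86 and 4.17.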

How the data were processed

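The authors trimmed single reads with Cutadapt, aligned them to the GRCm38 transcriptome and estimated counts with RSEM, after base calling with CASAVA per the submitters' processing notes, and deposited TMM-normalized CPM for 13687 genes, treated here as a normalized signal because the TMM factors move the library sums away from the CPM total. Whether strand was used is not given in the sources used here. Whole reads were recovered for 100% of the values (tolerance 0.01 reads). Depth was 9777738 to 21203938 reads per library, and the floor of 3 reads covers counting error only. No column of per-sample values was left unused (0). Groups came from the sample labels, and each group holds 2 mice, so p-values of the main fit measure the spread between these mice. That fit treats the 8 cultures of the 4 mice as independent. For genotype this overstates the independent information, and for stretch the spread between mice is not the spread of the stretch effect.

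Genes that reached a value of 1 in 2 or more libraries were kept (13665 genes, 22 removed), and log2(value + 1), which understates differences of low genes, was fitted with limma 3.58.1 (trend, 4 residual degrees of freedom) in R 4.3.3 over all 8 libraries, with Benjamini-Hochberg adjustment over all genes and a threshold of 0.05. The test was checked on simulated data. edgeR 4.0.16 (quasi-likelihood) and DESeq2 1.42.0 on the recovered reads, a replicate block, pseudocounts of 0.1 and 5, a minimum mean of 5 and no filter were alternatives. Static and stretched cultures of 1 mouse deviated together from their group means (r = 0.703 in WT and 0.85 in CAV1-/-), and the labels give them the same mouse number, so that the replicate block pairs animals for stretch.

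The members and lists were chosen with earlier results of these data known. Given with every culture were, in each role, the members with the largest and smallest ratio of CAV1-/- mouse 1 to the other 6 cultures and, in each comparison, the 3 largest differences in each direction. Other members are given by range and count. Promoter sequences are from RefSeq (GRCm38.p6). Positions are from GENCODE M21 on GRCm38. Exons of Irf9, Irf1, Irf7, Dhx58, Parp14, Ifi35, Igtp, Gbp2, Gbp7, Rtp4, Psmb8, Psmb9, Tap1, Tap2 and Tapbp overlap other genes, and Ifit3, Oas1a, Gbp3, Gbp7 and the class I heavy chains have close copies, so their reads are uncertain. One gene of the pathway lists is not reported here.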

Additional observations from a re-analysis of the deposited data

Results flagged for a closer look

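Ifit3 and Parp14 were looked at again because their values were lower under stretch in both WT mice and higher in both CAV1-/- mice. The stretch effect in CAV1-/- minus that in WT was 0.47 on the log2 scale for Ifit3 (limma adjusted p = 1) and 0.86 for Parp14 (limma adjusted p = 1), so neither difference passed the test. Such opposite directions occurred in 2 of 35 members (5.71%) and in 8.98% of all genes tested. Ifit3 rested on 3 reads in the static culture of CAV1-/- mouse 1.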

How the results depend on the processing

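Of the values that answer a comparison, 235 stayed within the stated limits under the alternatives tried and 21 moved, and of the values for single members 366 stayed on the same side of the threshold, 7 passed it and 0 turned direction. DESeq2 called 2 members without stretch and 2 with stretch (Oasl2 and Xaf1). The replicate block, which is the mouse for stretch and the replicate number for genotype, called 3 members without stretch (Oasl2, Tap1 and Xaf1) and 0 with stretch, but in genotype comparisons the number joins different animals (r = 0.522 without and 0.484 with stretch), and the block changed no other member's call. Leaving out single cultures, the median difference of the members lay between -0.32 and -0.13 for stretch in WT, between -0.36 and 0.043 for stretch in CAV1-/-, between -0.18 and 0.25 for the interaction between -0.31 and -0.071 for stretch over both genotypes, between -0.66 and -0.31 for genotype without stretch and between -0.61 and -0.17 for genotype with stretch. With a pseudocount of 5 the median for stretch over both genotypes was -0.11. The count of members below all others in CAV1-/- mouse 1 was 6 to 12, highest without its static culture, when its stretched culture alone has to be lowest (22% of all genes). The cause of the other shifts was not tested. Over all genes, limma called 0 for stretch in WT, 0 for stretch in CAV1-/-, 10 and 8 for genotype without and with stretch, 0 for the interaction and 0 for stretch over both genotypes. In the same order DESeq2 called 3, 7, 309, 238, 0 and 39, the replicate block 0, 1, 246, 110, 0 and 201, and edgeR 0, 0, 2, 6, 0 and 0. limma without trend called 6 genes for genotype without stretch. Without single cultures limma called 0 to 8 genes for genotype without stretch and 0 to 7 with it, and without both cultures of CAV1-/- mouse 1 it called 0. A mean of at least 5 left 10797 genes and 23 members. Counts of members without overlap between groups under rescaling and with single cultures left out were chosen after seeing the data. With 2 mice per genotype and fewer than 50 reads in at least 1 culture for 16 members, small differences were not detectable.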
